A study of Mus musculus with 514 samples.

Results

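The 200 genes described here were those that rose most between the 4-cell (4C) and the 8-cell (8C) stage in mouse embryos without Esrrb. They were chosen from group means of log2(TPM + 1), where TPM is a transcript's share of a library scaled to a sum of 1000000, in the table of full-length reads. A gene had to reach a mean of at least 4 in the 8C mz_EKO embryos and to lie at least 2 above its mean in both 4C mz_EKO and late 2-cell z_NrHet embryos. Of 55168 named genes 513 met these conditions, and the 200 with the largest rise over 4C mz_EKO were kept. Aqp3, Cdx2, Crip2, Plk5, Steap3 and the keratin genes Krt8 and Krt18 met them too and were left out by name. At the border, Cmtm7 rose by 3.41 and Cdc42ep3 by 3.40 inside the list, and Pramel5 rose by 3.40 and Scarb2 by 3.39 outside it. Since those embryos chose the genes, the rise in mz_EKO embryos is a description, and the contrasts tested below compare embryos of the other genotypes. The mz_EKO libraries still entered the statistical fits, with their filter, date terms and shared estimate of the spread.

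In the mouse, transcription from the embryonic genome is established by the 2-cell stage, and the 8-cell embryo then compacts: its cells flatten against each other, seal their contacts and form an apical surface. Genes that come on in this interval include the first regulators of the trophectoderm, the outer epithelium that will form the placenta, together with parts of cell junctions, the cortical cytoskeleton and metabolic enzymes. Nr5a2 and Esrrb encode orphan nuclear receptors that bind related DNA elements and are both present in the cleaving embryo.

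The series measured poly-A RNA of single whole oocytes and embryos, and the comparisons used the 8C embryos labelled mz_NrKO (10, maternal and zygotic deletion of Nr5a2) and mz_DKO (10, maternal and zygotic deletion of both Nr5a2 and Esrrb) with the 21 labelled mz_DHet, which are heterozygous for both deletions. The 10 8C mz_EKO embryos lack maternal and zygotic Esrrb, and the 4C groups held 6 mz_DHet, 4 mz_EKO, 5 mz_NrKO and 10 mz_DKO embryos. The 7 late 2-cell z_NrHet embryos were heterozygous for the Nr5a2 deletion. Other early groups are only described. The MII oocytes were 9 Nrpp (floxed control), 18 NrHet and 12 NrKO (Nr5a2 deleted). The early 2-cell embryos shown were 21 mz_Nrpp and 29 mz_NrHet, and 7 late 2-cell embryos were mz_DHet. The 8C groups hold no embryo labelled wild type, the labels name no strain, Cre driver, mother or litter, and p-values therefore measure the spread between these embryos. Because whole embryos were lysed, fewer cells and less RNA per cell cannot be told apart.

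Read depth per library is unknown, since the deposited values are TPM; 10863 to 13969 genes lay above 1 TPM in the 8C mz_DHet embryos. Nr5a2 transcripts were not lost and so check nothing about the deletion, with 293 to 961 TPM in 8C mz_NrKO and 184 to 695 TPM in mz_DHet embryos. Reads carrying a molecular identifier (UMI) at the 5' end showed the Esrrb deletion, with 0.876 to 2.43 TPM in 8C mz_EKO and 7.58 to 64.0 TPM in mz_DHet embryos. The 8-cell markers Cdx2, Krt8, Krt18, Tfap2c, Nanog and Cldn4 each averaged at least 10 TPM in 8C mz_DHet embryos, and none of the 28 markers of cumulus cells, blood, sperm and oviduct did so in any 8C group compared. The blood markers summed to at most 10.2 TPM in mz_DHet, 34.2 TPM in mz_DKO and 80.2 TPM in mz_NrKO embryos; their part in the results was not tested. In mz_DKO 4 of the 6 8-cell markers averaged at least 10 TPM, all but Cdx2 and Nanog.

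A full-length and a UMI library at 8C stood apart from the groups of their labels. The library labelled mz_NrKO replicate 1, dated 23 February 2022, had a median member level of 5.81 on the log2(TPM + 1) scale, while the other 9 mz_NrKO libraries lay between 4.11 and 5.49. Of the 94 members that were lower in mz_NrKO, 56 lay below the median of the mz_DHet embryos of 8 March in that library, against 84 to 94 in each of the other 9. These 94 were called with the same mz_NrKO libraries. Controls of other dates were also low by this count. The mz_DHet embryos had 80 and 76 on 23 February and 73 to 77 on 15 July, where mz_NrKO had 84 to 92. The library labelled mz_NrKO replicate 1 held 301 TPM of Ass1 and 331 TPM of Stard10, where the other 9 held 0 to 24.2 and 1.57 to 81.1 TPM. The label also ties each full-length library to a UMI library of the same embryo, and over 4150 genes none of the 39 labelled pairs at 8C matched best with its own partner, whereas all 25 pairs at 4C did over 4893 genes. Of the 39 full-length libraries of 8 March, 38 matched best with a UMI library of the same genotype (r of 0.53 to 0.85 across genes, a description). These 38 followed the order of the numbers within each genotype. The match of mz_DHet replicate 3 was UMI replicate 1, and that of replicate 2 of mz_EKO, mz_NrKO and mz_DKO was UMI replicate 1 of each. The UMI numbers at 8C were thus shifted against the full-length numbers. Full-length mz_DHet replicates 13 and 14 matched best with UMI mz_DHet replicates 11 and 13, and no mz_DHet library of 8 March with number 12. The remaining library of 8 March, mz_NrKO replicate 7, matched best with the UMI library labelled mz_DHet replicate 12 (r of 0.81). The same UMI library was the best match of all 7 libraries of 15 July, at 0.39 to 0.44 for the 4 mz_DHet and 0.45 to 0.60 for the 3 mz_NrKO embryos. That UMI library held 4.02 TPM of Ass1 and 1139 TPM of Ifitm2, where the other 15 UMI mz_DHet libraries held 68.2 to 350.1 and 38.5 to 353 TPM and the 5 mz_NrKO held 0.735 to 14.9 and 529.8 to 955 TPM. The 5 libraries of 23 February, 2 of them mz_DHet, matched none of their own genotype (best r of 0.24 to 0.44). Each 8C UMI library was already the best match of a library of 8 March. The libraries of 23 February and 15 July thus had no partner left, and their low r says nothing about their labels. Results are given with all libraries. The counts of members lower or higher than in mz_DHet, and some single values, are also given without the 5 of 23 February, which include mz_NrKO replicate 1. Other single values moved too. In mz_NrKO, Khdc3 went from -3.03 to -3.51, Akr1b8 from -1.69 to -2.18, Tspan1 from 1.02 to 1.37 and Id3 from -0.70 to -0.09 (log2 fold changes). The counts of members lower or higher by UMI reads are also given without the UMI library labelled mz_DHet replicate 12.

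Before the 8-cell stage the members were low but not all silent. In the 4C mz_DHet embryos 39 of the 200 averaged under 1 TPM and 59 averaged at least 10 TPM, whereas in 8C mz_DHet embryos all 200 averaged at least 10 TPM. In 39 MII oocytes 43 members averaged at least 10 TPM, among them Pou5f1 at 377 TPM, Actn1 at 261 TPM and Cdh1 at 152 TPM. These are oocytes of all genotypes, the 12 NrKO included. Of the list, 94 members averaged under 1 TPM in the NrHet oocytes. By annotation 166 members were protein-coding, 17 were processed pseudogenes, and the rest were other pseudogenes, non-coding RNAs or entries without a position (198 had one).

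**Figure D1:**
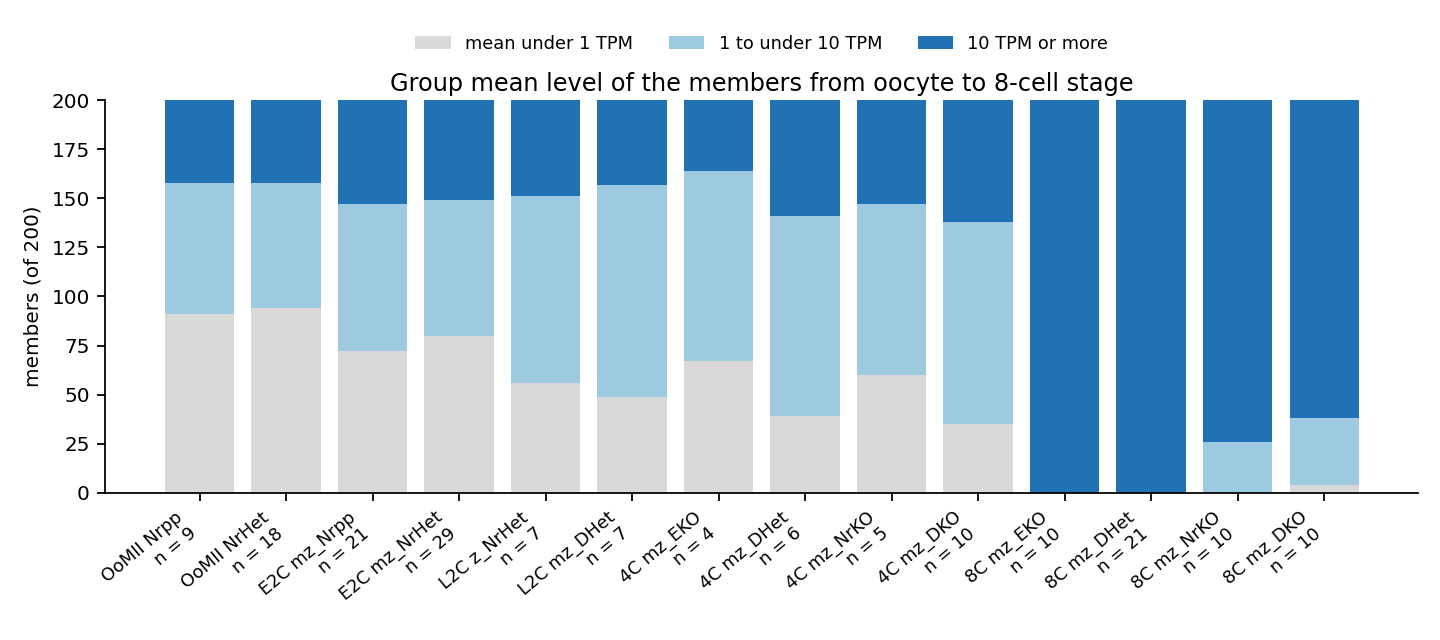
Number of the 200 members whose group mean lay under 1, from 1 to under 10, or at 10 TPM or more, from MII oocyte (OoMII) over early 2-cell (E2C), late 2-cell (L2C) and 4C to 8C; n is the number of oocytes or embryos. All 200 were at 10 TPM or more in 8C mz_EKO, which chose them, and in mz_DHet, against 174 in mz_NrKO and 162 in mz_DKO.

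The rise recurred in embryos that had not chosen the genes. From 4C to 8C, 193 of the 200 members rose in mz_DHet embryos (limma on log2(TPM + 1), adjusted p under 0.05), with a median of 3.58, beside 17.7% of the 15542 genes tested. In mz_NrKO 182 rose with a median of 3.03 (background 13.8%), and in mz_DKO 177 rose with a median of 2.71 (background 17.6%). No date holds both stages, so stage and date cannot be told apart in these rises. The 4C libraries also differed by date: the 8 of 22 May had median member levels of 0 to 2.10, with a middle value of 0.42, and the 17 of 17 June had 1.12 to 2.66, with a middle value of 2.19.

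At 8C the median member level of an embryo was 4.61 to 6.06 (middle value 5.66) in mz_DHet and 5.57 to 5.92 (5.73) in mz_EKO on the log2(TPM + 1) scale. It was 4.11 to 5.81 (4.84) in mz_NrKO and 4.11 to 5.55 (5.11) in mz_DKO. The groups overlapped, and the mz_DHet embryos differed by date: the 15 of 8 March lay between 5.46 and 6.06, the 4 of 15 July between 4.61 and 5.36. Within 8 March the 6 mz_NrKO embryos lay between 4.28 and 5.49 and the 9 mz_DKO embryos between 4.11 and 5.55, while the 3 mz_NrKO embryos of 15 July, at 4.11 to 5.05, overlapped the mz_DHet embryos of that day.

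**Figure D2:**
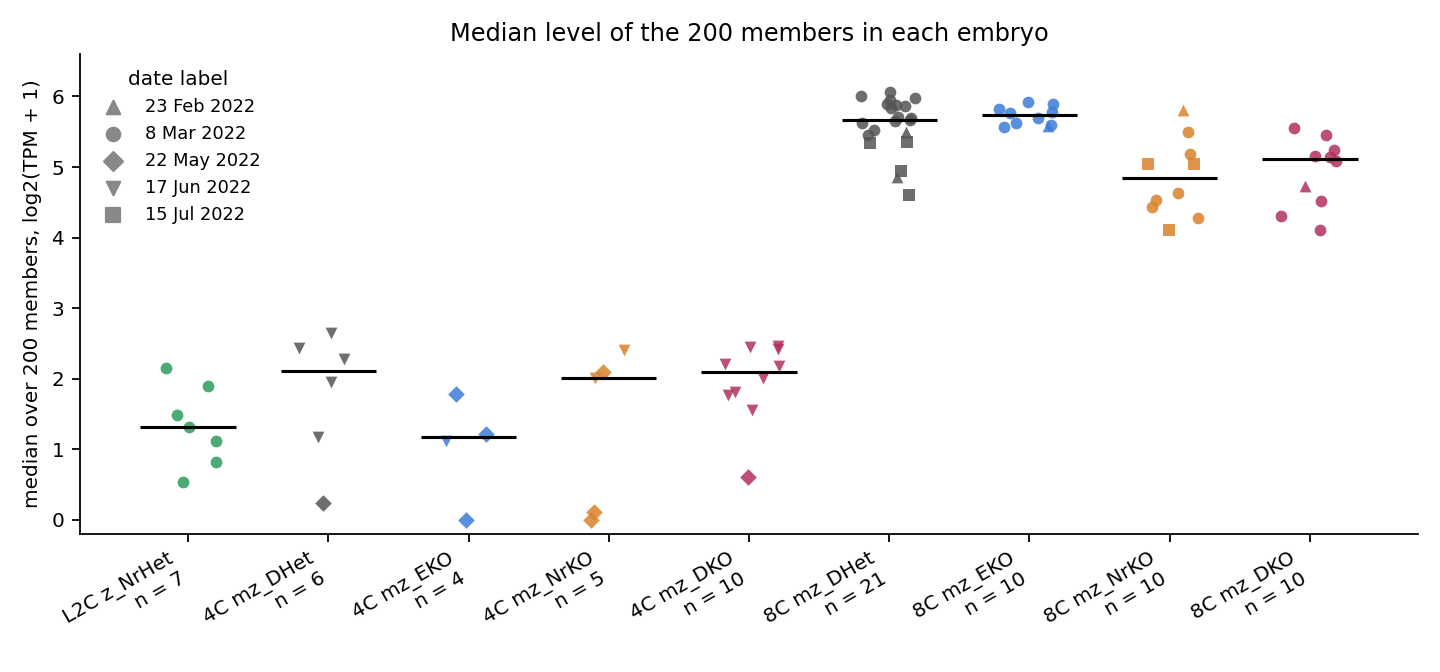
Median over the 200 members of log2(TPM + 1) in each embryo, by stage and genotype; each point is 1 library, its shape the date in the labels, and the bar the group's median. All 8C embryos lay above all earlier ones, and the triangle at 5.81 in 8C mz_NrKO is replicate 1 of 23 February.

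Many members were lower at 8C in embryos without Nr5a2. In mz_NrKO 94 of the 200 were lower and 12 higher than in mz_DHet (limma with genotype and date, Benjamini-Hochberg adjusted p under 0.05 over 10876 genes), beside 14.2% of all genes lower and 14.1% higher. The median member fold change was -0.71 (log2; middle 50% from -1.45 to -0.07), against 0.00469 over all genes. In mz_DKO 52% of the 200 were lower and 18 members higher, beside 14.8% and 18.9% of all genes, with a median of -0.75 against 0.05. Both comparisons use the same mz_DHet embryos; 83 members were lower in both and 63 were called in neither. All 200 members passed the filter on low values (at least 5 TPM in at least 10 of the 51 libraries). The rule made this likely, since it asked for a mean of at least 4 in 8C mz_EKO. The other genes tested were not chosen for a high level or a rise, so their shares are no matched background. Without the 5 libraries of 23 February, 54.5% of the members were lower and 15 members higher in mz_NrKO (background 16.7% and 16.8%), and 51.5% lower and 19 higher in mz_DKO (15.8% and 18.6%). Within 8 March alone, 58% were lower and 10 members higher in mz_NrKO (background 15.7% and 13.2%), and 55% and 17 in mz_DKO (15.7% and 18.2%). Among the 43 members already at 10 TPM or more in oocytes 20 were lower in mz_NrKO, and among the other 157, 74 were.

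**Figure D3:**
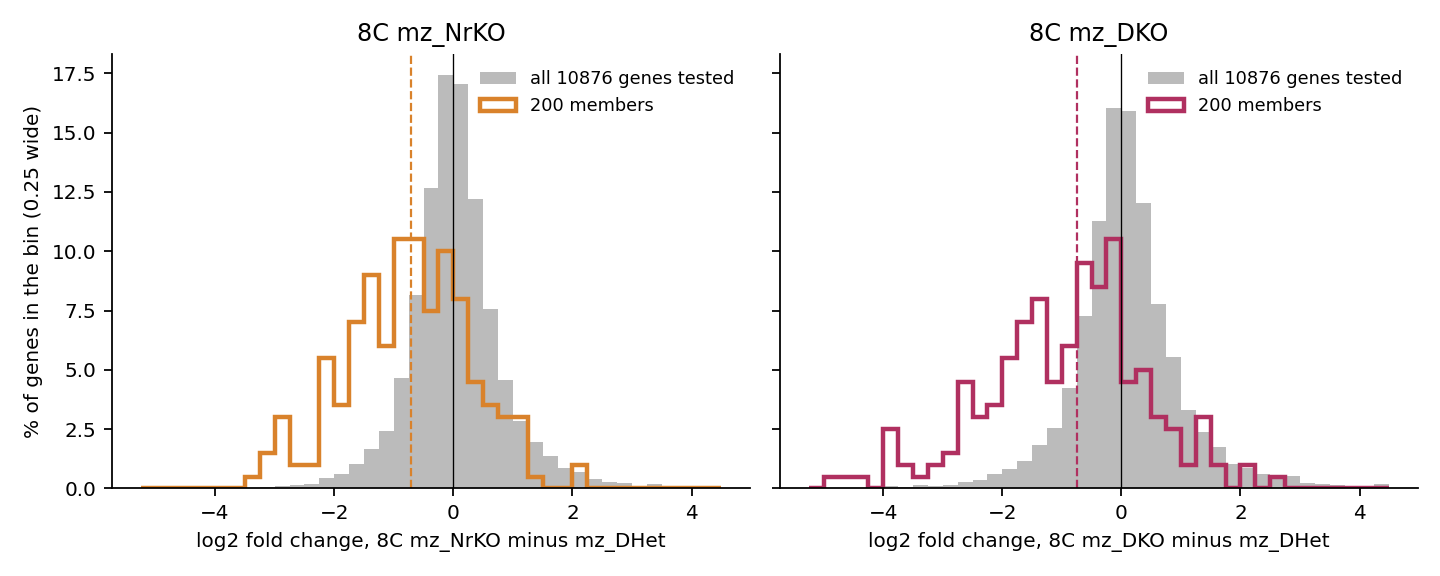
Share of genes by log2 fold change against 8C mz_DHet in mz_NrKO and mz_DKO, in bins of 0.25, for all 10876 genes tested (grey) and the 200 members (outline); values past the axis are in the end bins, and the dashed line is the members' median, at -0.71 and -0.75. The members' outline lies to the left of the grey in both panels, with a smaller group to the right of 0.

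Levels of genes typical of earlier stages stand beside these counts. The median of the 200 genes that fell most by the mirrored rule (4C mz_EKO mean of at least 4 and at least 2 above 8C mz_EKO) was 0 to 1.52 (middle value 0.18) in 8C mz_DHet, 0.06 to 2.07 (1.53) in mz_NrKO and 0.94 to 2.22 (1.48) in mz_DKO embryos. The summed 2-cell markers had a median of 5.40 TPM in mz_DHet, 40.3 TPM in mz_NrKO and 101.2 TPM in mz_DKO embryos. Tdpoz3, Usp17lc and Usp17ld averaged at least 10 TPM in both mutants, and Tdpoz3 also in mz_DHet (10.2 TPM). Zscan4c and Zscan4d had medians of 0 in each of these groups. The summed oocyte markers had medians of 20.3, 57.3 and 102.1 TPM. Zp3 was the only oocyte marker to average at least 10 TPM, with medians of 17.2, 54.6 and 86.5 TPM. The part of these earlier-stage genes in the members' fall was not tested.

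The deepest falls included enzymes, a lipid carrier and secreted or surface proteins. Ass1 (argininosuccinate synthase, which makes arginine with Asl; chr2:31470207-31520672, mm10) had 18.6 to 361 TPM (median 129.5) in mz_DHet, 0 to 301 TPM (median 11.3) in mz_NrKO and 0 to 30.7 TPM (median 3.56) in mz_DKO embryos. The high value in mz_NrKO is replicate 1, and the other 9 lay below the mz_DHet median. The log2 fold change was -3.48 ± 0.56 (adjusted p = 4.18e-06) in mz_NrKO and -4.84 ± 0.57 (adjusted p = 2.55e-09) in mz_DKO, SE after the sign, here and below from limma with Benjamini-Hochberg adjustment; without the libraries of 23 February the first was -4.26.

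Khdc3, which encodes Filia of the subcortical maternal complex, had 189.1 to 1378 TPM (median 915) in mz_DHet, 6.95 to 661 TPM (median 172.8) in mz_NrKO and 6.87 to 322 TPM (median 90.4) in mz_DKO embryos. All mutant embryos were below the mz_DHet median, 5 mz_NrKO and 8 mz_DKO embryos below the lowest mz_DHet embryo. It fell by 3.03 (adjusted p = 3.63e-06) and by 3.78 (adjusted p = 2.41e-08) on the log2 scale. It was 1 of only 2 members with a promoter window that held the letters TCAAGGNCA, the element that nuclear receptors of the Nr5a and Esrr families share. The other was Plcd1 (phospholipase C delta 1), which had fold changes of -0.24 ± 0.28 (adjusted p = 0.569) in mz_NrKO and -0.85 ± 0.28 (adjusted p = 0.0157) in mz_DKO. The windows run from 250 bases before to 50 after the start site in RefSeq (GRCm38.p6), written 5' to 3' along the gene, with the match in capitals. It starts 208 bases before the start site in Khdc3, on the opposite strand, and 206 bases before in Plcd1. Plcd1 has another window in RefSeq, at chr9:119093453-119093752 (- strand), which held no match.
Khdc3, chr9:73102148-73102447 (+ strand): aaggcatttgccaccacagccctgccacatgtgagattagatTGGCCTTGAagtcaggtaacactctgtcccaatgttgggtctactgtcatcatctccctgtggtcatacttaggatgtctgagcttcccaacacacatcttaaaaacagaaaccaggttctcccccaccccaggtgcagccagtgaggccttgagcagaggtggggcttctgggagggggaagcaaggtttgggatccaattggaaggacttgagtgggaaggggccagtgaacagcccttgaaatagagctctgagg
Plcd1, chr9:119088212-119088511 (- strand): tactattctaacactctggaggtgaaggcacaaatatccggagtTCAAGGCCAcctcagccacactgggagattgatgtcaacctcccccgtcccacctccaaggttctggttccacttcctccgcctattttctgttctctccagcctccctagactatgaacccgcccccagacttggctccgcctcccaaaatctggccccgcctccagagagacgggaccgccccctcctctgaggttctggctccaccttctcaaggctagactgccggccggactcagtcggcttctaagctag

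Stard10, a carrier of phosphatidylcholine and phosphatidylethanolamine (chr7:101317086-101346626), had 38.4 to 360.1 TPM (median 92.99) in mz_DHet, 1.57 to 331 TPM (median 9.49) in mz_NrKO and 0 to 20.6 TPM (median 3.95) in mz_DKO embryos. All 10 mz_DKO embryos lay below every mz_DHet embryo; of the members this held for 4, namely Stard10, Nectin2, Tinagl1 and the clone 4930522L14Rik, beside 0.267% of all genes tested, and for none in mz_NrKO (0.0276%). Its fold changes were -2.99 ± 0.36 and -3.91 ± 0.37 (adjusted p = 1.42e-08 and 7.02e-12). Tinagl1, a secreted matrix protein of the trophectoderm list, had 4.06 to 81.1 TPM (median 30.0) in mz_DHet and a median of 1.58 TPM in mz_NrKO, where replicate 1 held 34.0 TPM and the other 9 held 0 to 5.14 TPM. In mz_DKO it was listed at 0 in the median embryo and reached at most 3.03 TPM.

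Fstl3, a secreted inhibitor of activin, had medians of 99.8, 10.7 and 5.75 TPM in mz_DHet, mz_NrKO and mz_DKO and had fold changes of -2.86 ± 0.35 and -3.96 ± 0.36 (adjusted p = 2.15e-08 and 2.44e-12). Nectin2, an adhesion receptor of nascent cell contacts, had 35.2 to 168.9 TPM (median 86.6) in mz_DHet, 1.01 to 76.9 TPM (median 10.4) in mz_NrKO and 1.79 to 30.3 TPM (median 19.4) in mz_DKO embryos. Of its mutants 9 of 10 and 10 of 10 lay below the lowest control, with fold changes of -2.86 ± 0.35 and -2.64 ± 0.35, both called. Epas1, the oxygen-sensing transcription factor HIF-2 alpha, had medians of 62.2, 8.24 and 13.3 TPM and had fold changes of -2.77 ± 0.33 and -2.74 ± 0.34 (adjusted p = 1.37e-08 and 8.53e-09). In replicate 1 of mz_NrKO these genes stood at 32.9, 76.9 and 51.1 TPM, below the control median each time. The other members among the 10 largest falls in either mutant were Vill (villin-like), Got1l1, Phldb3, Serpinb9b (a protease inhibitor), Cyp2d9 (a cytochrome P450) and As3mt (arsenite methyltransferase), with fold changes of -3.07, -2.84, -2.66, -2.45, -2.38 and -1.75 in mz_NrKO, all called. Phldb3 was low in replicate 1 too, with 3.43 TPM where the other 9 mz_NrKO libraries held 1.24 to 15.3 TPM and mz_DHet a median of 71.8 TPM.

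**Figure D4:**
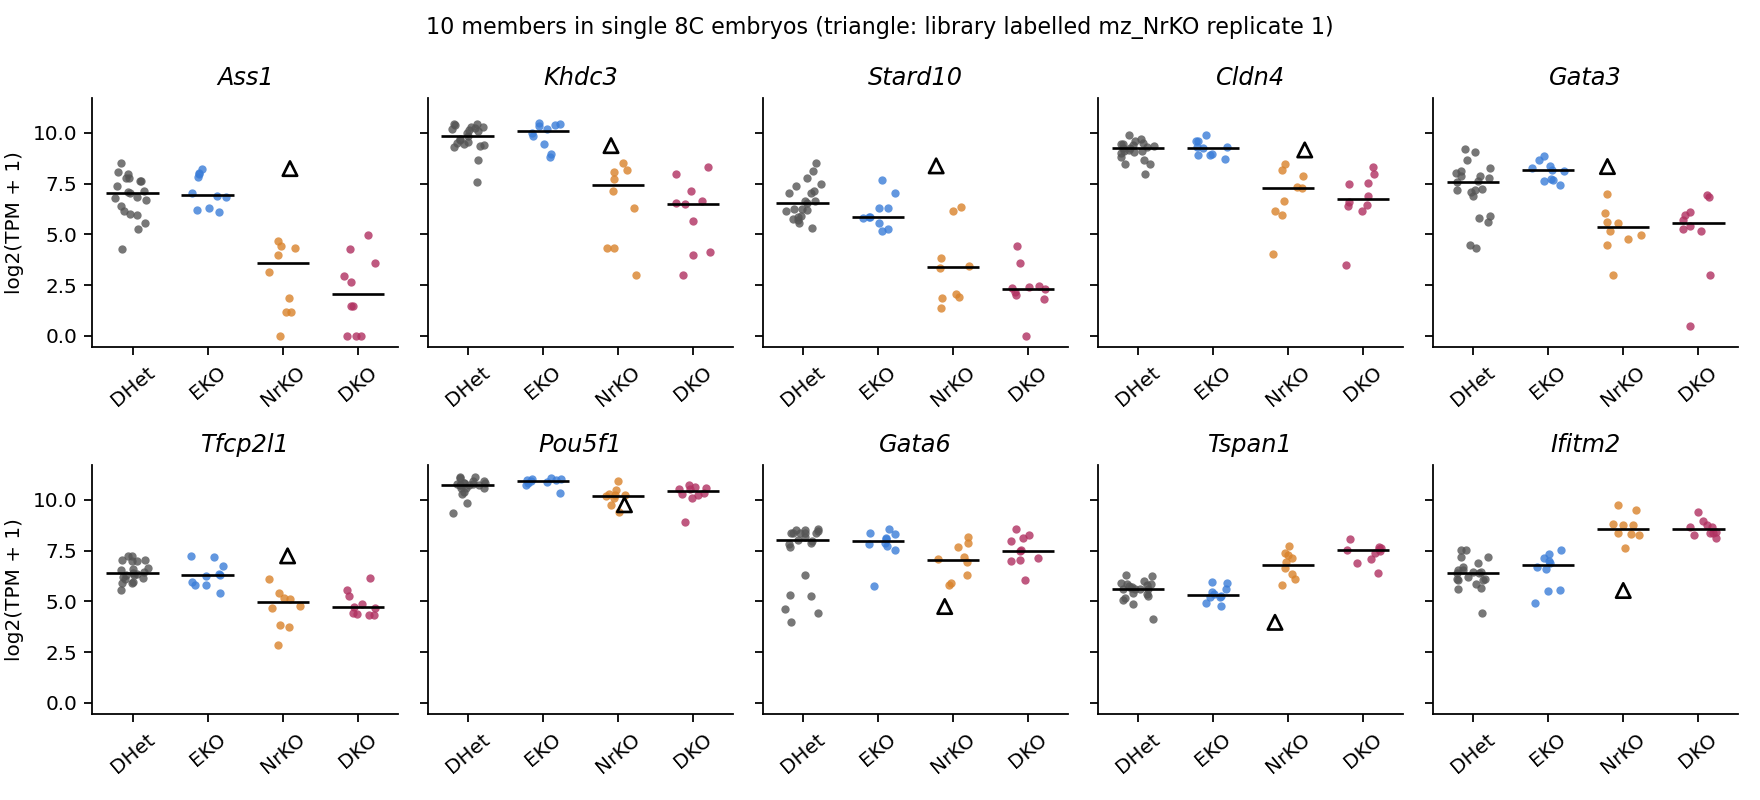
log2(TPM + 1) of 10 members in single 8C embryos by genotype (21 mz_DHet, 10 mz_EKO, 10 mz_NrKO, 10 mz_DKO); each point is 1 embryo, the bar the group median, and the open triangle the library labelled mz_NrKO replicate 1. Ass1, Khdc3, Stard10, Cldn4, Gata3 and Tfcp2l1 were low and Tspan1 and Ifitm2 high in most mutants, with the triangle among the controls or outside the other mz_NrKO embryos, and Gata6 overlapped throughout.

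Of the trophectoderm list, 18 of 29 genes were tested, of which 8 were lower and 2 higher in mz_NrKO, and 10 and 3 in mz_DKO. For this list and those below, the share over all genes tested was 14.2% lower and 14.1% higher in mz_NrKO. In mz_DKO it was 14.8% and 18.9%. Of the trophectoderm list 5 genes are members. Gata3, a zinc-finger factor that promotes trophectoderm fate (chr2:9857078-9890034), had 18.7 to 588 TPM (median 187.9) in mz_DHet, 7.05 to 323 TPM (median 40.9) in mz_NrKO and 0.379 to 120.9 TPM (median 46.5) in mz_DKO embryos. The groups overlapped widely, since the lowest mz_DHet embryo was below the median of both mutants, and 9 of 10 mz_NrKO and 10 of 10 mz_DKO embryos were below the mz_DHet median. Its fold changes were -1.57 ± 0.49 (adjusted p = 0.0119) and -2.42 ± 0.49 (adjusted p = 1.05e-04), the first -2.03 without the libraries of 23 February. Elf3, an epithelial ETS factor, had fold changes of -1.37 ± 0.41 (adjusted p = 0.00863) and -1.35 ± 0.41 (adjusted p = 0.00873) from a mz_DHet median of 209 TPM. Fabp3, a fatty-acid binding protein of the same list, had 20.9 to 1409 TPM (median 204) in mz_DHet alone and was not called (-0.18 and 0.12). Ly6a (Sca-1) had fold changes of 0.94 ± 0.30 (adjusted p = 0.0159) and 0.71 ± 0.31 (adjusted p = 0.0672), and passed in mz_DKO too without the libraries of 23 February (0.79, adjusted p = 0.0380).

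Of 23 tested genes of the inner cell mass list 7 were lower and 5 higher in mz_NrKO, and 11 and 7 in mz_DKO. Pou5f1, which encodes Oct4, had 664 to 2261 TPM (median 1729.6) in mz_DHet, 683 to 1984 TPM (median 1189) in mz_NrKO and 484 to 1712 TPM (median 1388) in mz_DKO embryos. It had fold changes of -0.47 ± 0.10 (adjusted p = 3.54e-04) and -0.43 ± 0.10 (adjusted p = 7.20e-04), and 9 and 10 of 10 mutants lay below the control median though nearly all were above its lowest embryo. Tfcp2l1, a factor of naive pluripotency, had 45.7 to 151.3 TPM (median 84.3) in mz_DHet, 6.19 to 150.5 TPM (median 30.1) in mz_NrKO and 18.8 to 69.2 TPM (median 25.0) in mz_DKO, with 8 of 10 embryos of each mutant below every control. Its fold changes were -1.67 ± 0.23 (adjusted p = 1.99e-07) and -1.46 ± 0.23 (adjusted p = 1.65e-06). Tet2, a methylcytosine dioxygenase, was called in mz_DKO (-0.99 ± 0.31, adjusted p = 0.0112) and not in mz_NrKO (-0.57 ± 0.31, adjusted p = 0.174). Gata6, the primitive endoderm regulator, and Id3, an inhibitor of basic helix-loop-helix factors and a BMP target, were called in neither: Gata6 had fold changes of -0.22 ± 0.21 and -0.31 ± 0.21, and Id3 of -0.70 ± 0.37 and 0.33 ± 0.37. Replicate 1 of mz_NrKO held 3.33 TPM of Id3 and the other 9 held 66.0 to 551 TPM, and without the libraries of 23 February the change in mz_NrKO was -0.09. Of 11 tested primitive endoderm genes 1 was lower and 4 higher in mz_NrKO, and 1 and 5 in mz_DKO; of 79 genes of the transcription factor families 22 were lower and 11 higher, and 20 and 17.

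Of 32 tested genes of the junction and adhesion list 9 were lower and 6 higher in mz_NrKO, and 10 and 8 in mz_DKO. Cldn4, a tight-junction claudin and the member with the largest rise over 4C (chr5:134945119-134946934), had 253 to 936 TPM (median 616) in mz_DHet, 15.1 to 570.2 TPM (median 156.9) in mz_NrKO and 10.2 to 318 TPM (median 106.9) in mz_DKO embryos. All mutants were below the control median, and 7 mz_NrKO and 9 mz_DKO embryos below the lowest control. The fold changes were -1.98 ± 0.34 (adjusted p = 1.58e-05) and -2.53 ± 0.35 (adjusted p = 8.69e-08). Cdh1, the E-cadherin gene needed for compaction, had a mz_DHet median of 100.1 TPM and had fold changes of -0.71 ± 0.27 (adjusted p = 0.0378) and -0.62 ± 0.27 (adjusted p = 0.0672); Itgb1 was called in neither (-0.43 and -0.21). Perp (a desmosome protein), Tspan1 (a tetraspanin) and Itga3 (integrin alpha 3) rose, by 0.60, 1.02 and 1.10 in mz_NrKO and by 1.28, 1.72 and 1.44 in mz_DKO. The promoter window of Cldn4 and that of Ass1 are shown because these members fell from high levels and hold none of the receptor letters. Capitals mark CCNCNCCC on either strand, the letters of the Klf and Sp factor family, which begin 59 bases before the start site in Cldn4 and at 5 places in Ass1, where matches may overlap.
Cldn4, chr5:134946885-134947184 (- strand): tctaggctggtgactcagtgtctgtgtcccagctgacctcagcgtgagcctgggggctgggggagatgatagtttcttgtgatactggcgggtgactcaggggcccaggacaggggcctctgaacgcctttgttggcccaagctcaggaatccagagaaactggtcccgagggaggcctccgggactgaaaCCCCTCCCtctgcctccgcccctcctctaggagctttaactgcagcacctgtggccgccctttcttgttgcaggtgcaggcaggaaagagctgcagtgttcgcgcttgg
Ass1, chr2:31470020-31470319 (+ strand): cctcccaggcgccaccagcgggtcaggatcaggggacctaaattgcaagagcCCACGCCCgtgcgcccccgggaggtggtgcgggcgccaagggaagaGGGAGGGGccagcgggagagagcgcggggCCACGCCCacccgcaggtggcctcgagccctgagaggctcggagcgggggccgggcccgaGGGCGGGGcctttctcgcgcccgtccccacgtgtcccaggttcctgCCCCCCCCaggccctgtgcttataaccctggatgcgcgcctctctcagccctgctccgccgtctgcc

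Of the actin and cortex genes that passed, most were lower. Of 34 tested genes of the polarity, apical membrane and actin list 10 were lower and 1 higher in mz_NrKO, and 15 and 2 in mz_DKO. Tagln2, an actin-bundling transgelin, had medians of 77.1 TPM in mz_DHet, 7.64 in mz_NrKO and 13.0 in mz_DKO, and its fold changes were -2.15 ± 0.45 (adjusted p = 2.48e-04) and -2.63 ± 0.46 (adjusted p = 8.32e-06). In replicate 1 of mz_NrKO it stood at 208 TPM, above every control, and without the libraries of 23 February the change was -2.79. Actn1, the alpha-actinin that crosslinks filaments, had fold changes of -1.58 ± 0.26 and -1.20 ± 0.27 and Tpm4, a tropomyosin, of -1.18 ± 0.28 and -1.36 ± 0.29, all called. Replicate 1 of mz_NrKO held 501 TPM of Tpm4, above every control. The Tpm4 change in mz_NrKO was -1.47 without the libraries of 23 February. Amotl2, an angiomotin that binds Yap in the Hippo pathway, passed in mz_DKO (-1.74 ± 0.39, adjusted p = 4.15e-04) and not in mz_NrKO (-0.63 ± 0.39, adjusted p = 0.231), although all mutants lay below the control median. Tpm1, with 63.7 to 236 TPM (median 131.8) in mz_DHet, had fold changes of -0.07 ± 0.27 and 0.01 ± 0.27. The annexin and S100 list, with 11 genes tested, holds no member; 1 was lower and 2 higher in mz_NrKO, and 3 and 3 in mz_DKO.

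Among carriers, Slc28a3 (a nucleoside transporter) had fold changes of -1.82 ± 0.34 (adjusted p = 4.57e-05) and -1.98 ± 0.34 (adjusted p = 7.69e-06), with 8 and 9 of 10 mutants below every control and 1 mz_NrKO embryo, replicate 1, above every control. Slc38a4 (a transporter of neutral amino acids) had fold changes of -0.99 ± 0.37 (adjusted p = 0.0379) and -1.17 ± 0.38 (adjusted p = 0.0126), and Slc35g1 of -0.95 ± 0.22 (adjusted p = 0.00102) and -0.47 ± 0.23 (adjusted p = 0.104). Without the libraries of 23 February Slc35g1 passed in mz_DKO as well (-0.59, adjusted p = 0.0484). Atp6v1f, a subunit of the vacuolar proton pump, had medians of 124.1, 161.7 and 92.1 TPM and was called in neither. Over the whole list of 244 carriers and channels tested, 51 were lower and 27 higher in mz_NrKO and 47 and 53 in mz_DKO. Of all genes, 14.2% and 14.1% were so in mz_NrKO and 14.8% and 18.9% in mz_DKO.

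Of the redox and detoxification members, Cat (catalase, which breaks down hydrogen peroxide) had medians of 24.9 TPM in mz_DHet, 3.04 in mz_NrKO and 3.61 in mz_DKO and had fold changes of -2.21 ± 0.47 (adjusted p = 3.04e-04) and -2.09 ± 0.48 (adjusted p = 4.74e-04). Akr1b8, an aldo-keto reductase, had fold changes of -1.69 ± 0.41 (adjusted p = 0.00121) and -1.99 ± 0.41 (adjusted p = 1.31e-04). In replicate 1 of mz_NrKO Cat and Akr1b8 stood at 71.6 and 391 TPM, above every control. Without the libraries of 23 February their changes in mz_NrKO were -2.58 and -2.18. Gsto1, a glutathione transferase, was called in mz_DKO only (-0.96 ± 0.32, adjusted p = 0.0153, against -0.09 ± 0.31, adjusted p = 0.859 in mz_NrKO), and the difference between the mutants was not called (adjusted p = 0.436). In the whole list 9 of 31 tested genes were lower and 7 higher in mz_NrKO, and 8 and 7 in mz_DKO.

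None of the 5 members held by the lipid list fell. Apoa1, the main protein of high-density lipoprotein, had 5.63 to 742 TPM (median 130.03) in mz_DHet and had fold changes of 0.93 ± 0.50 (adjusted p = 0.170) and 0.99 ± 0.51 (adjusted p = 0.132). The fatty-acid oxidation enzymes Acadl and Hadh rose in mz_DKO by 0.41 and 0.54 (adjusted p = 0.0495 and 0.00186). Without the libraries of 23 February Apoa1 passed in mz_NrKO (1.27, adjusted p = 0.0337) and Acadl no longer did in mz_DKO (adjusted p = 0.0589). Serpinb6a, a protease inhibitor, had fold changes of -1.34 ± 0.36 (adjusted p = 0.00366) and -1.95 ± 0.36 (adjusted p = 2.60e-05), and Hexa, a lysosomal hexosaminidase, of -0.32 ± 0.21 and -0.38 ± 0.21, not called. Replicate 1 of mz_NrKO held 118 TPM of Serpinb6a, above every control. The Serpinb6a change in mz_NrKO was -1.77 without the libraries of 23 February. Without the libraries of 23 February Hexa passed in mz_NrKO (-0.49, adjusted p = 0.0349). Hk2 (hexokinase 2) and Mthfsd had fold changes of 0.05 and -0.08 in mz_NrKO. Fbp2, a fructose bisphosphatase, had 150.02 to 832 TPM (median 546) in mz_DHet and 315 to 806 TPM (median 508) in mz_NrKO, overlapping fully. It was called higher in mz_DKO, with 330.2 to 1095 TPM (median 636) (0.54 ± 0.19, adjusted p = 0.0272). Acadl, Hk2, Tpm1, Atp6v1f, Mthfsd and Fbp2 had the smallest changes in mz_NrKO among members with a mz_EKO mean of at least 6 (log2), from -0.08 to 0.09. Of the whole lists, of lipid and sterol genes 9 of 42 were lower and 7 higher in mz_NrKO and 7 and 11 in mz_DKO, and of 36 nucleotide, glycolysis and amino acid enzymes 8 and 7, and 6 and 7. Of all genes tested 14.2% were lower and 14.1% higher in mz_NrKO, and 14.8% and 18.9% in mz_DKO. Of lysosome and protease genes 6 of 29 were lower and 0 higher in mz_NrKO, and 8 and 4 in mz_DKO.

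**Figure D5:**
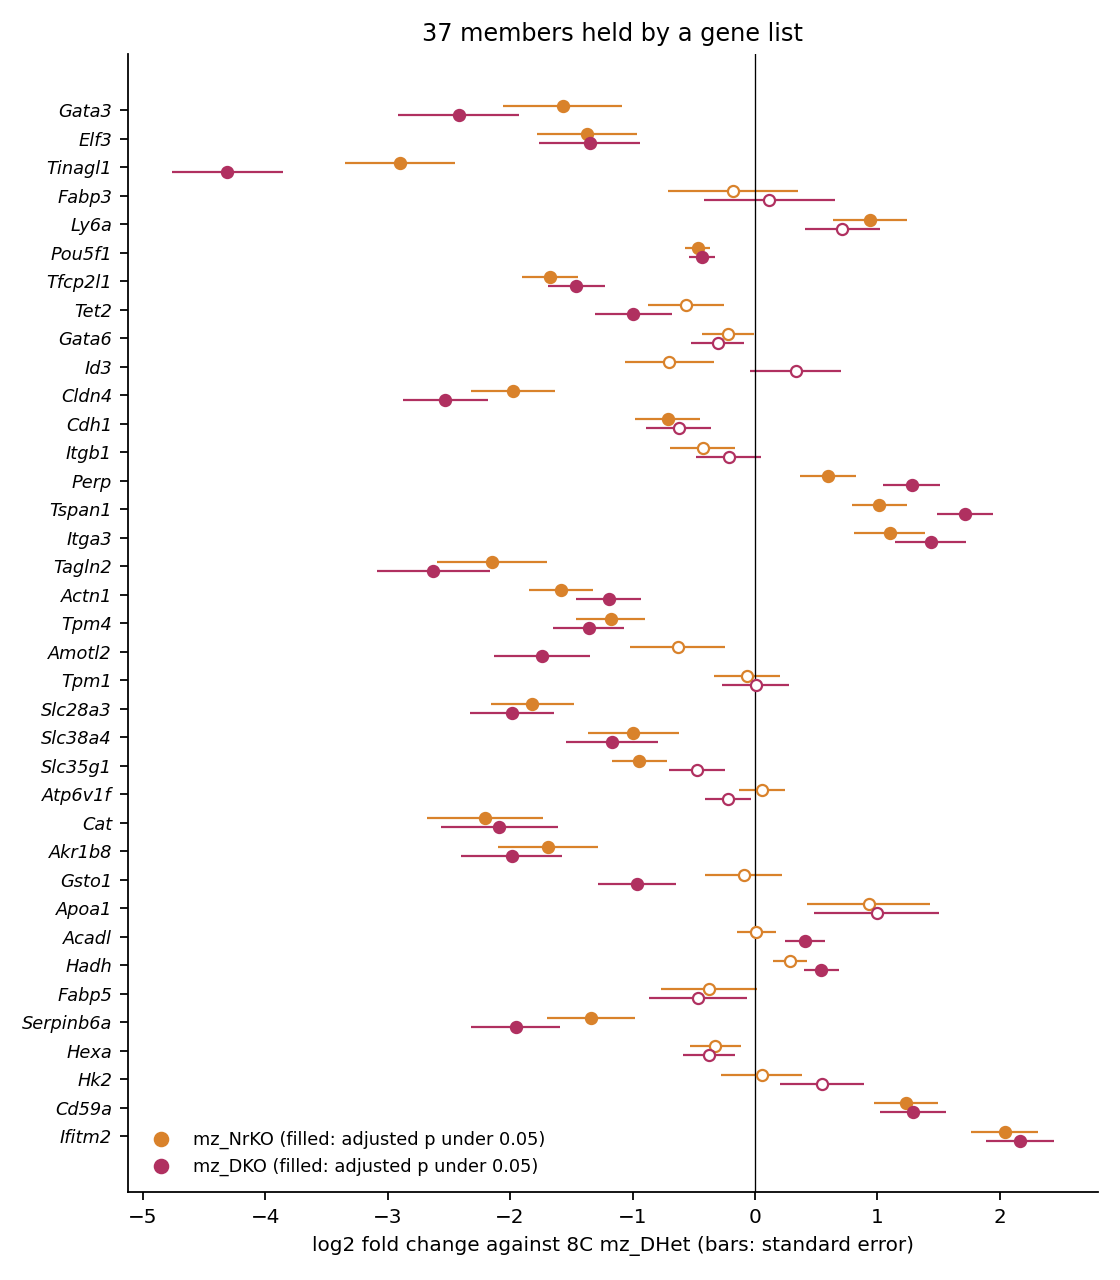
log2 fold change against 8C mz_DHet of 37 members held by a gene list, in mz_NrKO and mz_DKO, with standard errors; filled points had an adjusted p under 0.05 (limma). Gata3, Tinagl1, Cldn4, Tagln2, Slc28a3 and Cat lie to the left, Perp, Tspan1, Itga3, Cd59a and Ifitm2 to the right, and Fabp3, Gata6 and Tpm1 near 0.

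Several of the members that rose encode surface proteins. Ifitm2, an interferon-induced transmembrane protein (chr7:140954837-140955987), had 20.2 to 187.1 TPM (median 84.6) in mz_DHet, 45.4 to 858 TPM (median 380.4) in mz_NrKO and 278 to 668 TPM (median 374) in mz_DKO embryos. All 10 mz_DKO embryos and all mz_NrKO embryos but replicate 1, at 45.4 TPM, lay above every control. Its fold changes were 2.04 ± 0.28 (adjusted p = 1.67e-07) and 2.17 ± 0.28 (adjusted p = 2.29e-08). Tspan1 had 16.7 to 78.5 TPM (median 48.7) in mz_DHet, 14.6 to 212 TPM (median 110.7) in mz_NrKO and 83.6 to 272 TPM (median 181.1) in mz_DKO. With Ifitm2 it was 1 of 2 members with all mz_DKO embryos above every control, beside 0.671% of all genes tested. Of 21 tested genes of the interferon-linked and immune list 11 were higher and 1 lower in mz_NrKO, and 12 and 1 in mz_DKO. Of all genes, 14.1% were higher and 14.2% lower in mz_NrKO, and 18.9% and 14.8% in mz_DKO. Cd59a, a complement inhibitor, had fold changes of 1.23 ± 0.27 (adjusted p = 3.34e-04) and 1.29 ± 0.27 (adjusted p = 1.40e-04).

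Abhd12b, a predicted hydrolase, had fold changes of 1.49 ± 0.27 (adjusted p = 2.35e-05) and 2.18 ± 0.27 (adjusted p = 8.26e-09) from a control median of 10.2 TPM, with 4 and 9 of 10 mutants above every control. Loxl2, a lysyl oxidase that crosslinks collagen, had fold changes of 1.17 ± 0.31 (adjusted p = 0.00350) and 1.56 ± 0.32 (adjusted p = 1.04e-04). Tspan3, a tetraspanin, was called in mz_DKO (1.48 ± 0.42, adjusted p = 0.00504) and not in mz_NrKO (0.72 ± 0.42, adjusted p = 0.205). Abhd12b is shown because it was the 1 member whose promoter window held AAGGTCA, the core receptor element on either strand, which begins 92 bases before the start site (capitals).
Abhd12b, chr12:70153881-70154180 (+ strand): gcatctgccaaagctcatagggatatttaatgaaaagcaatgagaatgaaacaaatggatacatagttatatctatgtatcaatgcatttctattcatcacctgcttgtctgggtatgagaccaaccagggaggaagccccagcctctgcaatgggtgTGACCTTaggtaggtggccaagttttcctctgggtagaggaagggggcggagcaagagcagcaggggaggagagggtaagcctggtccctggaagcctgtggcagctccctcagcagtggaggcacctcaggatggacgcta

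The windows could be matched for 138 of the 200 members, with 169 promoters. TCAAGGNCA was found for 1.45% of these members, against 1.34% of the 7750 tested genes with a window and 1.86% of the 27025 genes in the RefSeq table; AAGGTCA was found for 0.725%, 3.94% and 5.38%, and a match to the longer letters need not hold the shorter. GCCNNNGGC, the palindrome of Tfap2 factors, was found for 27.5%, 28.1% and 18.5%, ACATTCC, the Tead letters, for 4.35%, 3.17% and 4.47%, and CCNCNCCC for 80.4%, 71.7% and 51.9%. CCNCNCCC was found for 83.3% of the 66 matched members lower in both mutants and for 66.7% of the 36 called in neither, whose windows had a median GC content of 60.7% and 58.3%. It was found for 85.7% of the 14 matched members higher in a mutant, at a median GC content of 55.7%. Each motif was searched on both strands, and the shares describe letters in a window of 300 bases.

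No member passed the test of the difference between the double and the single mutant. In mz_DKO against mz_NrKO 0 members were lower and 0 higher by limma (background 0.11% and 0.0368%), 15 and 8 had an unadjusted p under 0.05, and the UMI table gave 0 in each direction (background 0.0223% and 0.0112%). The smallest adjusted p of any member was 0.0724. The largest differences among called members were in Ass1, Tinagl1, Serpinb9b, As3mt and Tmeff1 (a transmembrane protein with follistatin domains), lower in mz_DKO by 1.36, 1.41, 1.24, 1.25 and 1.6 on the log2 scale. In Ass1, Tinagl1, Serpinb9b and As3mt replicate 1 of mz_NrKO held the highest value of its group, at 301, 34.0, 142.4 and 30.0 TPM, and without the libraries of 23 February the differences were -0.52, -1.001, -0.54 and -0.97.

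For part of the members the difference between genotypes was larger at 8C than at 4C. The members were chosen for low values in 4C mz_EKO, so a fall at 4C could hardly show on this scale. These counts therefore do not settle when the fall began. At 4C 5 members were lower and 5 higher in mz_NrKO than in mz_DHet (background 0.914% and 0.907%), and 6 and 1 in mz_DKO (1.94% and 1.42%). Tested as the difference between the 8C and the 4C contrast, 21 members rose less in mz_NrKO (background 1.23%) and 3 rose more (1.06%), and 50 and 5 did in mz_DKO (3.24% and 4.68%). Without the 5 libraries of 23 February 40 rose less in mz_NrKO (2.59%) and 56 in mz_DKO (3.88%). For Ass1 this difference was -4.09 ± 0.98 (adjusted p = 0.0135) in mz_NrKO and -5.09 ± 0.85 (adjusted p = 3.56e-05) in mz_DKO, and for Stard10 -3.39 ± 0.71 (adjusted p = 0.00375) and -3.80 ± 0.61 (adjusted p = 1.55e-05). Cldn4, with a 4C median of 0.691 TPM in mz_DHet, rose less in mz_DKO (-3.53 ± 0.65, adjusted p = 1.51e-04) and was not called in mz_NrKO (-1.01 ± 0.76, adjusted p = 0.553). For a member near 0 TPM at 4C this difference restates the 8C contrast. Tinagl1 had -2.90 in mz_NrKO and -4.31 in mz_DKO by both.

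The UMI reads were fitted in the same way, with the date in each UMI label as a factor. Of 171 members that passed the filter there, 87 were lower and 8 higher in mz_NrKO (5 embryos against 16; background 10.2% and 15.1%) and 92 and 16 in mz_DKO (9 embryos; 15% and 19.6%). Without the UMI library labelled mz_DHet replicate 12, 93 were lower and 9 higher in mz_NrKO (background 14% and 16.4%), and 99 and 16 in mz_DKO (19.6% and 20.6%). These are other reads of partly the same embryos and no second experiment. By the matches described above, some of these UMI libraries carry another date than the full-length library they matched best. The date factor is therefore unreliable in all the UMI counts. A fit of the UMI reads without it was also run, and its counts are not given here. Ass1 had 4.02 to 350.1 TPM in mz_DHet, 0.735 to 14.9 in mz_NrKO and 0 to 19.1 in mz_DKO by UMI, and Stard10 had 7.24 to 110.7, 0 to 7.26 and 0 to 4.38 TPM. All 5 mz_NrKO and all 9 mz_DKO UMI libraries lay below the control median for both genes; below every control were 2 and 4 of them for Ass1, and 4 and 9 for Stard10. With the UMI library labelled mz_DHet replicate 12 left out, which held the lowest control value of both genes, all 5 and all 9 lay below every control for each. By the authors' deposited table of full-length reads (false discovery rate under 0.1 and a change of at least 1.5-fold), 92 members were lower and 16 higher in mz_NrKO, beside 2.48% and 5.24% of all genes listed, and 52.5% lower and 13 higher in mz_DKO, beside 3.36% and 5.04%. By the authors' deposited table of UMI reads 50.5% were lower and 7 higher in mz_NrKO, beside 2.6% and 2.87%, and 97 lower and 16 higher in mz_DKO, beside 3.02% and 4.15%. The shares beside the authors' counts run over 55168 full-length and 55247 UMI entries, with no filter on low values. They are therefore not comparable with the shares over the filtered genes tested here.

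In 8C mz_EKO, which chose the members, levels are a description. The group means lay above those of mz_DHet for 149 of the 200, with a median difference of 0.21 on the log2(TPM + 1) scale and a range of -0.84 to 1.70, and 2 members differed by more than 1 upwards and none by more than 1 downwards. Cldn4 had 421 to 936 TPM (median 612), Ass1 68.7 to 294 TPM (median 123.4) and Ifitm2 29.0 to 181.7 TPM (median 109.7) in these embryos, within the range of mz_DHet in each case.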

How the data were processed

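The 263 full-length and 110 UMI libraries with values were read from tables that the authors deposited as TPM; per the file headers the UMI table holds the 5' reads with a molecular identifier and the full-length table the other reads of the same embryos. The submitters' processing notes name cutadapt, STAR, RSEM, DESeq2 and the mm10 build without versions. Column sums were 814735 to 995883 TPM (full-length) and 1000000 (UMI); 141 UMI samples were not analysed here, and 65 unnamed entries were left out. Values were taken as log2(TPM + 1), so fold changes of low genes are understated. The authors' deposited log2 fold changes and p-values (false discovery rates) are quoted only where named as theirs.

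Across the 51 8C libraries, genes that reached 5 TPM in 10 or more of them were tested with limma 3.58.1 (trend, empirical Bayes, R 4.3.3), with genotype and date as factors. The joint 4C and 8C fit required 4 libraries, had no date factor for the rises and had date for the difference between stages. Benjamini-Hochberg adjustment ran over all genes tested, two-sided, with a threshold of 0.05. The script was tested on simulated data. Members, lists, motifs and tests were chosen with earlier results of these data known. Named genes were the first 4 members of each list by rise, the 10 largest called falls and 5 largest called rises in each mutant, the 6 smallest changes in mz_NrKO, the 5 largest differences between mutants and the border of the rule. Plcd1, Cdh1, Itgb1, Actn1 and 4930522L14Rik were added after their values were seen. One named member is not reported here. Positions are from GENCODE M21. Alternatives were another pseudocount, filter, call, table, date term, replicate block, cap, and leaving out each replicate of the 8C mutants and the 4C groups. Single 8C mz_DHet libraries were not left out. After the data were seen 3 were added: without the libraries of 23 February, without a date factor for UMI reads, and without the UMI library labelled mz_DHet replicate 12.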

Additional observations from a re-analysis of the deposited data

Results flagged for a closer look

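The 53 named members in both 8C mutants, and the median member level, were tested in groups of 4 to 10 libraries for a single library far from the rest, and 13 groups had one; chance gives about 1 in 20. On the log2(TPM + 1) scale, the lowest library stood apart in 4C mz_DKO for the median member level (0.61), in 8C mz_DKO for Pou5f1 (8.92), Cldn4 (3.49) and Fabp3 (4.39), and in 8C mz_NrKO for Cd59a (3.87), Ifitm2 (5.54), Tspan1 (3.97), Tpm1 (4.53) and Id3 (2.11). The highest library stood apart in 8C mz_NrKO for Slc28a3 (6.03) and Tinagl1 (5.13), and in 8C mz_DKO for Tinagl1 (2.01) and Serpinb9b (0.74). In mz_NrKO it was the library labelled replicate 1, described above, for Cd59a, Ifitm2, Tspan1, Id3, Slc28a3 and Tinagl1, and another for Tpm1.

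The effect of the genotype differed between 8C and 4C for 27 contrasts of named members (limma interaction term, adjusted p under 0.05). As the 8C minus the 4C fold change on the log2 scale, in mz_NrKO and then mz_DKO, it was -4.09 and -5.09 for Ass1, -3.46 and -4.33 for Khdc3, -3.39 and -3.80 for Stard10, and -2.90 and -4.31 for Tinagl1. It was -3.51 and -4.18 for Fstl3, -3.37 and -3.48 for Nectin2, -3.68 and -3.40 for Epas1, and -2.59 and -1.89 for Tfcp2l1. In mz_DKO alone it passed for Cldn4 (-3.53), Serpinb9b (-3.14), Cyp2d9 (-2.83), Akr1b8 (-2.61), Gata3 (-2.47), As3mt (-2.38), Elf3 (-2.34), Slc28a3 (-2.30) and Amotl2 (-2.13). Without the libraries of 23 February Serpinb9b (-3.09) and Slc28a3 (-2.33) passed in mz_NrKO too, and Amotl2 no longer did in mz_DKO (-1.96, adjusted p = 0.0516). It was above 0 in mz_DKO for Abhd12b (1.87) and Tspan1 (1.69). For members near 0 TPM at 4C, such as Tinagl1, this difference restates the 8C fold change.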

How the results depend on the processing

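Of the 273 values recomputed under other settings, 257 were kept. A count was kept if it stayed within 1.5 times the main count. A median was kept if its sign held and it moved by less than the standard deviation of the member median over a mutant's libraries. That was 0.486 in mz_NrKO and 0.457 in mz_DKO. The exceptions follow, and their cause was not tested unless the construction shows it. Members higher in mz_NrKO numbered 7 without the date factor, 6 with the replicate block and 7 with calls of at least 2-fold, against 12. Without the cap of 200, which adds genes by construction, 202 were lower and 30 higher in mz_NrKO and 219 and 37 in mz_DKO. Members lower in mz_DKO than in mz_NrKO numbered 1 with a pseudocount of 0.1 and 0 to 1 on leaving out single replicates, the 1 without mz_NrKO replicate 4, 5 or 7. Members rising less in mz_NrKO numbered 8 with the replicate block and 40 without the 5 libraries of 23 February, against 21. They numbered 33 in the UMI table (47 there without the UMI library labelled mz_DHet replicate 12). On leaving out single 4C libraries of mz_DHet or mz_NrKO they numbered 12 to 23, the 12 without 4C mz_NrKO replicate 2. The share of members lower in mz_NrKO was 42.5% to 53.5% on leaving out single mz_NrKO libraries, highest without replicate 1. The number of lower members was 76 with the replicate block (95 in mz_DKO). Replicate numbers did not pair the embryos: same-number correlations were -0.21 to 0.25 for mz_NrKO and -0.10 to 0.47 for mz_DKO, with 0 and 1 of 10 embryos most like their own number. TPM hold no read depth, so the precision of a value in 1 library is unknown.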
